A study of Mus musculus with 18 samples.

Results

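Early change in sensory neuron cultures carrying 1 altered copy of Dynlrb1 was followed by setting 3 cultures collected at 24 h against 3 collected at 12 h, 6 cultures of the 18 in the series. They were chosen by genotype and time in the labels. RNA had been sequenced from mouse neurons cultured from the dorsal root ganglia (DRG), where the cell bodies of sensory nerves lie beside the spinal cord. The 6 cultures were heterozygous (HET) for the Dynlrb1 tm1a allele, a targeted insertion in the gene for a light chain of the dynein motor. No agent was named for any group, and strain and age are not given in the sources used here. Wild type (WT) cultures of the same 2 times, 3 each, served as the reference for the change. The remaining 6 cultures, collected at 48 h, entered only the estimate of the spread. Titles numbered the cultures 1, 2 and 5 at both times. The series describes the repeats as biological, and the labels do not tie them to animals. The p-values measure the spread between cultures in the deposited values, pooled over all 18. That spread is what was left after an unstated step had removed 2 directions of variation, so p-values may be too small.

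Taking DRG neurons into culture cuts their axons, and the cells then enter a program known from nerve injury. Transcription factors such as ATF3, JUN and SOX11 come on, growth and cytoskeletal genes rise, and genes of mature sensory function such as receptors and ion channels are turned down. Dynein carries cargo along microtubules from the axon to the cell body and is part of the route by which injury signals reach the nucleus. DRG cultures also hold Schwann cells, satellite glia, macrophages, fibroblasts and vessel cells.

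Values are the authors' normalized counts, given in the order replicate 1, 2 and 5 in every sentence that lists 3 of them, and their sequencing depth is unknown. Changes are log2 fold changes of (normalized count + 1), 24 h over 12 h, with standard error (SE). A gene is said to rise or fall where limma's moderated test gave a Benjamini-Hochberg adjusted p under 0.05 over 17198 genes. The labelled cell type was checked against its markers: all 18 neuron markers were measured, with summed FPKM (fragments scaled to gene length and library total) of 8668 to 10066 at 12 h and 7996 to 8232 at 24 h. On log2 values over all genes, Pearson r lay between 0.983 and 0.991 for cultures of 1 group and between 0.966 and 0.988 for cultures of different HET times. Dynlrb1 itself was at 3298, 4087 and 3414 at 12 h and 2716, 3811 and 3085 at 24 h. These groups overlapped, and the change of -0.18 (SE 0.12) did not pass the test (limma adjusted p = 0.345).

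Between 12 and 24 h more genes rose than fell in HET, a split that turned round when each culture was centred on its median. In all, 2261 genes rose (13.1% of those tested) and 991 fell (5.76%), together 3252 (18.9%). Changes of at least 2-fold were seen in 475 of the genes that rose and 249 of those that fell. The 2 groups did not overlap in 6607 genes (38.4%). Of the genes past the threshold, 69.5% were higher at 24 h. That share was 57.1% with the authors' other set of adjusted columns, 55.3% after quantile normalization and 41.8% after the centring, which moved the median change of all genes from 0.08 to -0.05. The authors' deposited table listed 3141 genes under the same threshold, 2105 higher and 1036 lower, and 2857 of them were also called here. The count rested on 3 cultures more than on the others: it was 1141 without replicate 2 at 12 h, 1834 without replicate 5 at 24 h and 1882 without replicate 1 at 24 h.

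**Figure D1:**
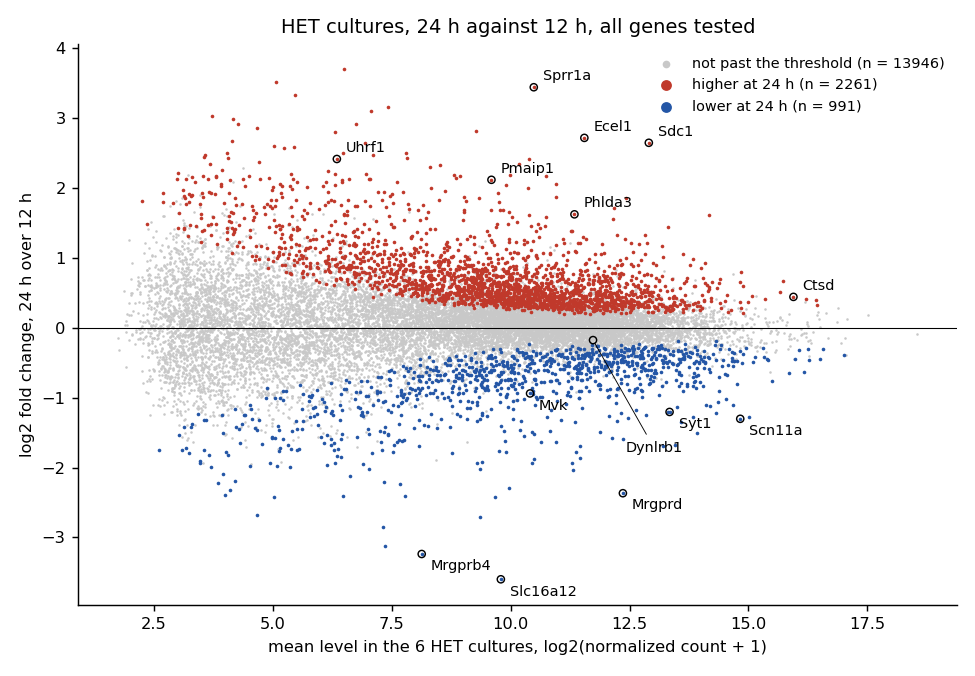
Change from 12 to 24 h (vertical axis, log2 fold change) against mean level in the 6 HET cultures (horizontal axis, log2 of the normalized count + 1), 1 point per gene. Red points are the 2261 genes that rose and blue points the 991 that fell. The largest falls, such as Slc16a12 and Mrgprb4, reach below -3, and Sprr1a rises by 3.44 at a mean level above most of the other large rises.

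The 12 largest rises were taken among called genes with a mean of 100 or more and no overlap between times. They were led by Sprr1a, a small proline-rich protein made by neurons after axon injury. The normalized count of Sprr1a was 412, 70.8 and 327 at 12 h and 4371, 1463 and 1959 at 24 h. The lowest 24 h culture stood well above the highest 12 h culture. This was a rise of 3.44 (SE 0.62), with a limma adjusted p of 0.00231. Ecel1, the damage-induced neuronal endopeptidase, was at 1159, 411 and 869 at 12 h and at 7123, 3190 and 5234 at 24 h, a rise of 2.72 (SE 0.46). Syndecan-1 (Sdc1), a heparan sulphate proteoglycan of the cell surface, went from 2185, 1253 and 2985 to 15191, 8194 and 16230, a rise of 2.65 (SE 0.44). In all 3 genes replicate 2 was the lowest culture at either time.

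Of these 12 genes 3 encode receptors. Adra2a, the alpha-2A adrenergic receptor, was at 147, 102 and 174 at 12 h and at 1752, 528 and 1003 at 24 h. Cckbr, a cholecystokinin receptor, was at 584, 264 and 454 and then at 2566, 1659 and 2510. Qrfpr, a neuropeptide receptor, was at 31.8, 27.5 and 59.5 and then at 354, 124 and 220. The groups did not overlap in any of the 3, as the choice required, and the changes were 2.81 (SE 0.42), 2.41 (SE 0.39) and 2.48 (SE 0.47). The others were the glycosyltransferase B4galnt2 (3.16), the prostaglandin D synthase Hpgds (3.10), the sulphotransferase Chst4 (2.91), Tmem98 (2.64), the membrane protease St14 (2.50) and the MAP kinase phosphatase Dusp9 (2.44). Each of the 12 stayed past the threshold when any 1 of the 6 cultures was left out. By absolute amount the largest rises were those of Srxn1, which reduces oxidised peroxiredoxins, and Rtn4, the Nogo membrane protein. Srxn1 was at 48126, 35433 and 41998 at 12 h and at 74816, 56208 and 67791 at 24 h. Rtn4 went from 79014, 69714 and 78848 to 103953, 94297 and 101255.

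**Figure D2:**
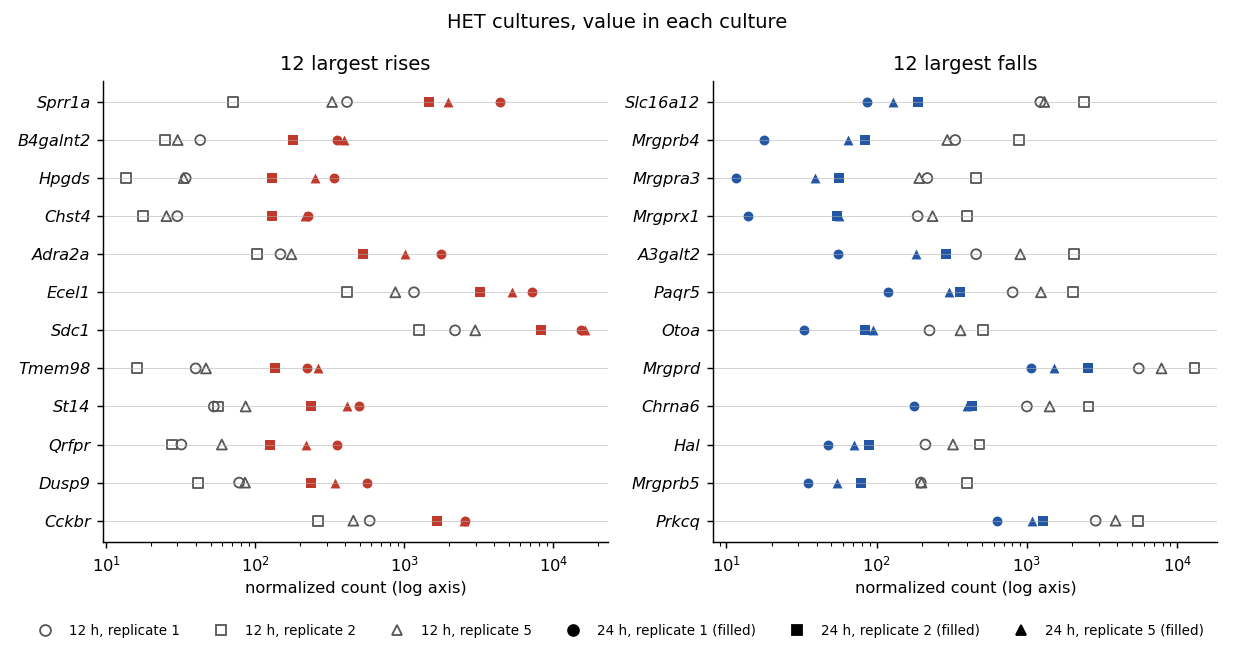
Normalized count (log axis) in each HET culture for the 12 largest rises and the 12 largest falls. Open grey symbols are 12 h and filled symbols 24 h, with circles, squares and triangles for replicates 1, 2 and 5. Replicate 2 at 12 h is the highest 12 h culture in each of the falls shown, and the 2 times are separate in each gene because the genes were chosen so.

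The promoters of 2 of these 12 genes held the site of AP-1, the factor formed by JUN, FOS and ATF3 family members, spelled TGANTCA and searched on both strands. They are shown because AP-1 factors are part of the injury program. Promoter windows, 250 bases before to 50 after the gene start, came from RefSeq on GRCm38.p6 and were found for 10 of the 12 genes. Capitals mark the sites. Sprr1a held 2, starting 146 and 116 bases before the gene start, in the window chr3:92485832-92486131 on the minus strand. Chst4 held 1, starting 59 bases before the start, in chr8:110039285-110039584 on the minus strand. Of 32851 promoters in the table, 7.81% held such a site. The cyclic AMP response element TGACGTCA was found in 0 of the 10 and in 1.79% of all promoters. A match describes the letters and does not show binding.
Sprr1a: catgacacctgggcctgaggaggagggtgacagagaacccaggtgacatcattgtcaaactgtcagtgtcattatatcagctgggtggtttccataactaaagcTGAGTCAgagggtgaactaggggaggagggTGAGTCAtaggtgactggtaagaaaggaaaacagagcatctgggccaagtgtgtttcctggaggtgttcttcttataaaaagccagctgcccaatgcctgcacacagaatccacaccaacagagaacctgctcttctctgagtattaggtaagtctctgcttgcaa
Chst4: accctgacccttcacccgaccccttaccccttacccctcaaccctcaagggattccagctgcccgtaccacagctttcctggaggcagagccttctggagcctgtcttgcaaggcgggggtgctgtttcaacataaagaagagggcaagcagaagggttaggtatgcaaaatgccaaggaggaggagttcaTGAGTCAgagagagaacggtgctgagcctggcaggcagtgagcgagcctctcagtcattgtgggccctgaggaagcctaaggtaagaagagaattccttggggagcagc

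Genes known to support regrowth rose in part. Of 29 regeneration effectors measured, 11 rose and 0 fell, against 13.1% and 5.76% of all genes, with a median change of 0.25 where all genes had 0.08. Beside Sprr1a and Ecel1, the integrin Itga7, a laminin receptor, went from 10524, 6926 and 9548 to 32984, 19857 and 30442, a rise of 1.61 (SE 0.26). The beta-tubulin Tubb6 went from 1638, 1120 and 1391 to 4120, 2944 and 3816 (1.39, SE 0.28), the small heat shock protein Hspb1 rose by 0.79, the stathmin Stmn4 by 0.74 and the receptor Tnfrsf12a by 0.85. Other genes of the program did not pass the test. Gap43, a growth cone protein, was at 15304, 13178 and 13192 at 12 h and at 15336, 15568 and 18871 at 24 h (limma adjusted p = 0.170). Atf3 was at 33865, 29141 and 30112 and then at 41961, 41440 and 43724, groups that did not overlap, with a change of 0.45 (SE 0.21) and a limma adjusted p of 0.144. Jun (-0.18) and Stmn2 (-0.09) did not pass either. Without replicate 2 at 12 h or replicate 1 at 24 h, 7 effectors rose.

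Of 22 transcription factors of regeneration 3 rose (13.6%) and 2 fell (9.09%), shares near those of all genes. Falls numbered 1 without replicate 2 at 12 h or replicate 1 at 24 h, 5 after centring and 4 with the authors' other adjusted columns. Crem, a cyclic AMP-responsive factor, went from 898, 631 and 760 to 1217, 1131 and 1197 (0.65, SE 0.12). Fosl2, an AP-1 subunit, went from 6544, 5871 and 6824 to 9359, 8726 and 8607 (0.47, SE 0.09). Both groups were separate in each gene. Sox11 rose by 0.61 with a limma adjusted p of 0.0494, which was above 0.05 on leaving out any 1 of 5 cultures and reached 0.230 without replicate 2 at 12 h. Among 17 injury-related neuropeptides 4 rose (23.5%, beside 13.1% of all genes) and 0 fell. Neurotensin (Nts) was at 1649, 1289 and 1931 at 12 h and at 4184, 2628 and 4708 at 24 h, a rise of 1.22 (SE 0.28). Npy was low, at 10.1, 4.07 and 22.1 and then at 127, 40.2 and 52.0. Leaving out replicate 2 at 12 h, Nts alone of the 4 passed, and without replicate 1 at 24 h 2 of them passed. Galanin (Gal), a classical injury peptide, was at 1521, 822 and 995 and then at 1476, 863 and 1570, with overlapping groups.

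Of 20 targets of the stress factor p53, 11 rose (55%) and 0 fell (median change 0.53), beside 13.1% and 5.76% of all genes. Phlda3, an inhibitor of AKT signalling, was at 1350, 1055 and 1408 at 12 h and at 3876, 3378 and 4502 at 24 h, a rise of 1.62 (SE 0.22, limma adjusted p = 0.000886). Cyclin G1 (Ccng1) went from 11128, 10312 and 13865 to 19356, 20625 and 23615 (0.86, SE 0.13). Bax, the pore-forming effector of apoptosis, went from 1390, 1263 and 1549 to 2135, 2307 and 2624 (0.75, SE 0.13). The 24 h cultures were above the 12 h cultures in each. Gtse1 (1.01), Perp (0.75), Aen (0.65) and Ei24 (0.35) also rose and, like the 3 genes before, did so without any 1 culture. Mdm2, the feedback inhibitor of p53, was at 7169, 7464 and 8040 and then at 7694, 8051 and 7772 (limma adjusted p = 0.740). Leaving out replicate 2 at 12 h left 7 of the 11 rises, and centring each culture on its median also left 7.

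Among 26 apoptosis regulators 5 rose (19.2%) and 2 fell (7.69%), shares near the 13.1% and 5.76% of all genes, with a median of 0.09 that was -0.03 after quantile normalization and -0.04 after centring. Falls numbered 4 after centring and with the authors' other adjusted columns, and 1 without replicate 2 at 12 h or replicate 1 or 5 at 24 h. Pmaip1 (Noxa), a BH3-only protein, was at 321, 181 and 374 at 12 h and at 1548, 849 and 1366 at 24 h, a rise of 2.12 (SE 0.29). Hrk, a BH3-only protein of neurons deprived of growth factor, was at 90.3, 69.1 and 57.8 and then at 271, 199 and 166, a rise of 1.53 (SE 0.37). Both held without any 1 culture. The ubiquitin ligase Trim17, which is known for promoting neuronal apoptosis, went the other way, from 348, 553 and 323 to 99.2, 159 and 116 (-1.69, SE 0.24). The other rises were Bax, Apaf1 (0.59) and the death receptor Tnfrsf10b (0.91), and the last 2 had limma adjusted p of 0.0524 and 0.0882 without replicate 2 at 12 h. The survival factor Bcl2 fell by 0.61 on the log2 scale with groups that did not overlap, and its limma adjusted p was above 0.05 without replicate 1 (0.141) or 2 (0.113) at 12 h or replicate 1 (0.161) or 5 (0.107) at 24 h. Bbc3 (Puma) did not pass, with a change of -0.04.

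Of 34 cell cycle and replication genes, 10 rose (29.4%) and 1 fell (2.94%), beside 13.1% and 5.76% of all genes, and the list's median was 0.55. The risers act at entry to S phase or in DNA replication. Mcm6, a subunit of the replicative helicase, was at 609, 428 and 775 at 12 h and at 1420, 1198 and 1538 at 24 h, a rise of 1.23 (SE 0.25). Uhrf1, which maintains DNA methylation at replication, was low, at 19.5, 17.4 and 39.8 and then at 167, 97.8 and 140 (2.42, SE 0.50). Cyclin E2 (Ccne2) went from 412, 284 and 387 to 851, 613 and 714 (1.01, SE 0.22). Cyclin D1 (Ccnd1) went from 558, 567 and 836 to 1688, 1679 and 2704 (1.62, SE 0.44). Its limma adjusted p was 0.0524 without replicate 1 at 12 h, 0.0793 without replicate 2 at 12 h and 0.0812 without replicate 5 at 24 h. The groups were separate in these 4 genes. The proliferation genes Mki67, Top2a and Cdk1 did not pass. Mki67 was at 145, 213 and 339 and then at 155, 160 and 141, Top2a had a change of 0.64 (SE 0.64), and Cdk1 one of 0.57 (SE 0.45). E2f1, an S-phase factor itself, fell by 0.62 on the log2 scale. It did not pass without replicate 2 at 12 h (limma adjusted p = 0.0849) or replicate 5 at 24 h (0.0540). The rises numbered 3 without replicate 2 at 12 h and 5 without replicate 5 at 24 h. In these bulk samples a changed number of cells of a type and changed RNA per cell cannot be told apart. Glia and fibroblasts can divide in such cultures. Their markers, given further on, had summed levels that were lower or overlapped at 24 h. Macrophage markers summed to 59.1 to 81.6 FPKM at 12 h and 83.1 to 168 at 24 h. In normalized counts their sums overlapped, at 3220, 4400 and 4598 at 12 h and 3871, 4582 and 8301 at 24 h. The part of any of these cells in the rises was not tested.

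Of 26 ribosome biogenesis factors 10 rose (38.5%) and 0 fell (median 0.28), beside 13.1% and 5.76% of all genes. Ftsj3, a processing factor of ribosomal RNA, went from 2068, 2062 and 2097 to 2928, 3185 and 3456 (0.62, SE 0.13), and Polr1b, a subunit of RNA polymerase I, from 803, 696 and 752 to 950, 1117 and 1055 (0.47, SE 0.11). The count was 3 without replicate 2 at 12 h, 6 without replicate 2 at 24 h, 5 without replicate 5 at 24 h and 5 after centring. Of 79 cytosolic ribosomal protein genes 3 rose (3.80%) and 2 fell (2.53%), shares below those of all genes. Their median of 0.10 became -0.03 after centring. Rises numbered 0 without replicate 1 or 2 at 12 h or replicate 5 at 24 h, 1 without replicate 5 at 12 h or replicate 2 at 24 h, 5 without replicate 1 at 24 h, and 0 after centring or quantile normalization. Falls numbered 0 or 1 without any 1 culture. Of 31 genes of the integrated stress response, which ATF4 drives, 9 rose (29.0%) and 0 fell (median 0.33). They included the transfer RNA synthetases Aars, from 26070, 21434 and 24457 to 39279, 33556 and 36443 (0.60, SE 0.12), and Wars, from 6522, 6017 and 6368 to 9834, 8037 and 9231 (0.52, SE 0.10). Atf4 itself (0.06) and its target Ddit3 (0.13) did not pass. The 9 rises became 3 without replicate 2 at 12 h, 6 without replicate 5 at 12 h, 5 without replicate 1 at 24 h and 3 after centring.

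Lysosomal genes rose in 8 of 29 cases (27.6%) and fell in 0 (median 0.15), beside 13.1% and 5.76% of all genes. The membrane tetraspanin Cd63 was at 1781, 1169 and 1584 at 12 h and at 3603, 2570 and 3416 at 24 h, a rise of 1.09 (SE 0.20). Progranulin (Grn) went from 2714, 2337 and 2820 to 5485, 3404 and 4780 (0.77, SE 0.15), and the hydrolase Gusb from 683, 563 and 665 to 1337, 903 and 1466 (0.93, SE 0.18). These 3 held without any 1 culture, with all 24 h values above all 12 h values, while the list count was 5 without replicate 1 at 12 h, 3 without replicate 2 at 12 h or replicate 1 at 24 h, and 4 without replicate 5 at 24 h or after centring. Macrophages also express Cd63, Grn and Cd68, and Cd68 rose from 352, 264 and 427 to 1410, 915 and 1724 (1.93, SE 0.30). Of the 19 macrophage markers 2 rose, a smaller share than the 13.1% of all genes, and 0 fell. Their summed FPKM was 59.1 to 81.6 at 12 h and 83.1 to 168 at 24 h. Rises numbered 4 without replicate 1 at 24 h and 1 without replicate 1 at 12 h or replicate 5 at 24 h, and the list's median of 0.22 lay between -0.31 and 0.61 without 1 culture. The defining receptor Csf1r was at 246, 349 and 442 and then at 352, 482 and 616 (limma adjusted p = 0.141). Their part in the lysosomal result was not tested. Of 34 proteasome subunits 6 rose (17.65%) and 2 fell (5.88%), beside 13.1% and 5.76% of all genes, and centring left 1 rise. Psmd11, a subunit of the regulatory lid, rose by 0.76 (SE 0.10), and the immunoproteasome subunit Psmb10 fell by 0.69 on the log2 scale. Rises numbered 3 without replicate 1 or 2 at 12 h and 1 without replicate 5 at 24 h, and falls 1 without replicate 2 or 5 at 12 h or replicate 1 at 24 h.

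Of 34 axon guidance genes, which steer the growing axon, 8 rose (23.5%) and 1 fell (2.94%), with a median of 0.26. Among all genes 13.1% rose, 5.76% fell and the median was 0.08. Sema3c, a secreted semaphorin, went from 2500, 1830 and 2481 to 5305, 4149 and 4694 (1.06, SE 0.14), Sema6a from 8439, 3111 and 5370 to 20082, 11828 and 11790 (1.44, SE 0.29), and the plexin receptor Plxnb1 from 247, 225 and 286 to 572, 465 and 615 (1.12, SE 0.23). The 2 times were separate in each, and the calls held without any 1 culture. Of 18 integrins 5 rose (27.8%) and 0 fell (median 0.33). Itgb1, the shared beta-1 subunit, was at 24116, 18948 and 25029 and then at 35411, 32787 and 38500 (0.66, SE 0.15), with a limma adjusted p of 0.0621 without replicate 2 at 12 h. Without that culture 1 integrin, Itga7, rose, and without replicate 1 at 24 h or after centring 3 did. Among 13 tubulins Tubb6, Tuba1c (1.30) and Tubb2a (0.55) rose (23.1%) and none fell. Tubulins are near-identical, however, and how shared reads were counted is not given in the sources used here.

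**Figure D3:**
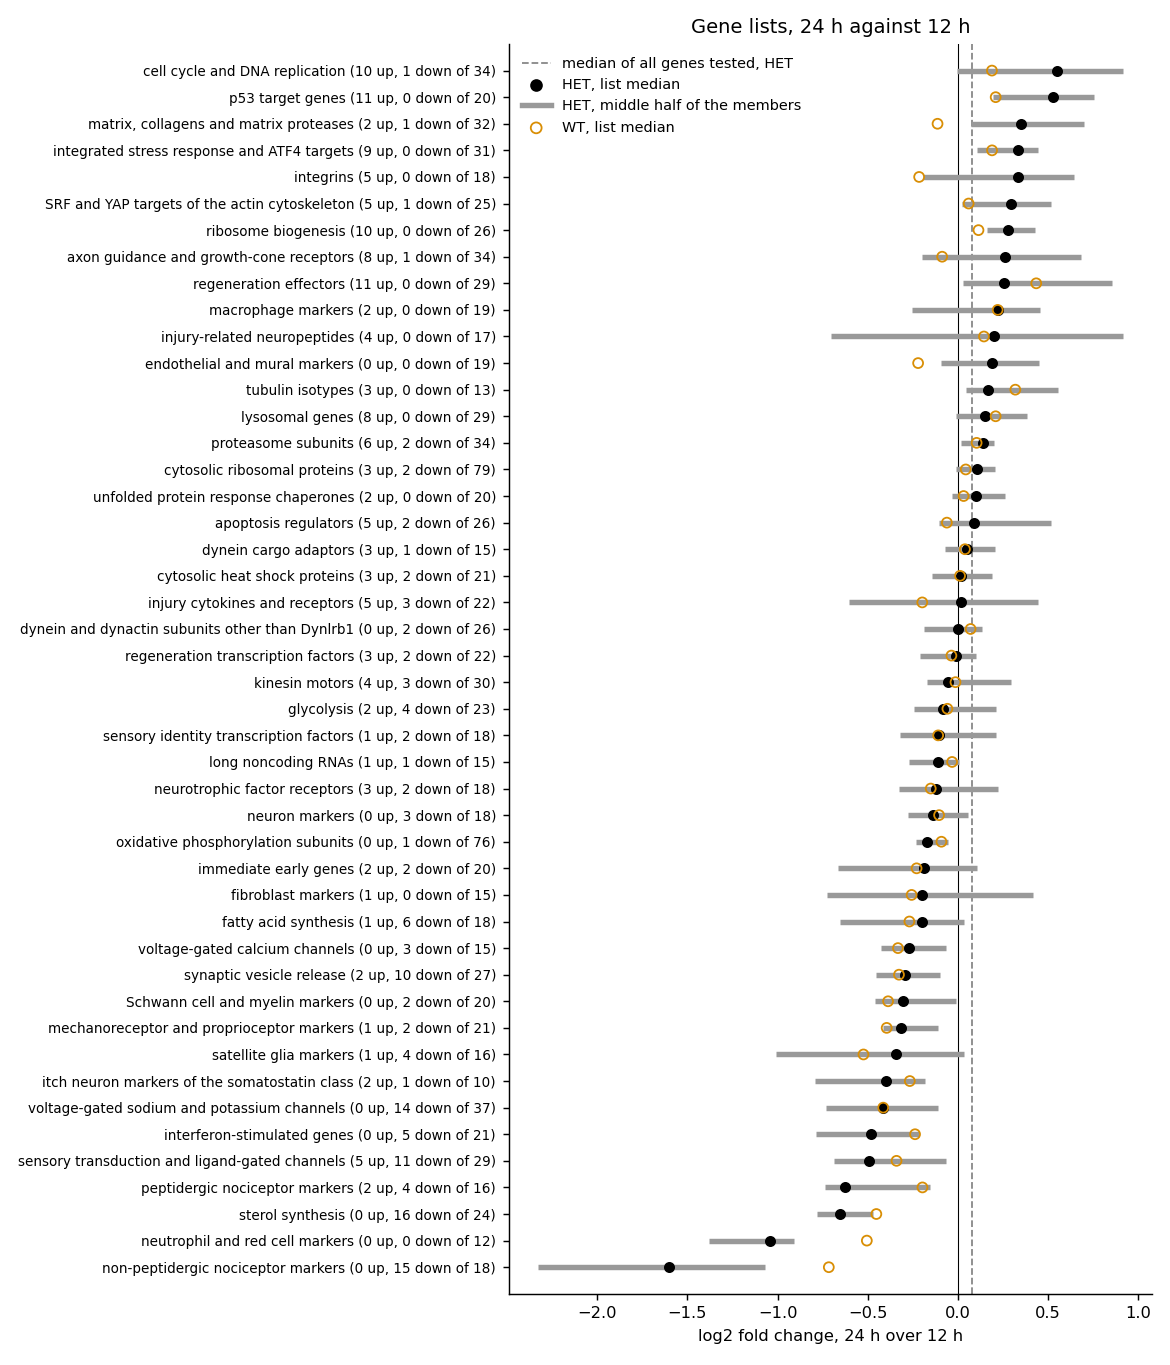
Change from 12 to 24 h (log2 fold change) for 46 gene lists, with the number of members that rose and fell in HET after each name. Black points are HET medians, grey bars run from the lower to the upper quartile of the members, open circles are WT medians and the dashed line is the median of all genes in HET (0.08). Non-peptidergic nociceptor markers lie lowest, at -1.60, and cell cycle genes highest, at 0.55.

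Of the 12 largest falls, chosen under the same conditions as the rises, 6 were markers of non-peptidergic nociceptors. These are the unmyelinated pain and itch neurons that carry Mas-related receptors. Of 18 markers of these cells 15 fell (83.3%, beside 5.76% of all genes) and 0 rose, with a median of -1.60. Mrgprd, their hallmark receptor, was at 5544, 13025 and 7854 at 12 h and at 1069, 2540 and 1516 at 24 h, a fall of 2.37 on the log2 scale (SE 0.68, limma adjusted p = 0.0225). The lysophosphatidic acid receptor Lpar3 was at 1832, 2810 and 2178 and then at 449, 743 and 675 (-1.88, SE 0.31). In both genes the highest 24 h value lay below the lowest 12 h value, and replicate 2 was the highest 12 h culture.

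Mrgprb4 (-3.24), Mrgpra3 (-3.13), Mrgprx1 (-2.85), Mrgprb5 (-2.21) and the glycosyltransferase A3galt2 (-2.71) also fell. Mas-related genes are a family of close copies, so the split of reads among them is uncertain. The surface protein Cd55 fell by 1.51 and the angiotensin receptor Agtr1a by 1.94 on the log2 scale. Not every marker moved: the ATP receptor P2rx3 was at 17632, 16704 and 19587 at 12 h and at 24597, 17554 and 20581 at 24 h, and Ret, the GDNF co-receptor, was at 38337, 42776 and 42928 and then at 38290, 34391 and 34948. Neither passed (limma adjusted p = 0.293 and 0.180). The count of 15 fell to 6 without replicate 2 at 12 h and to 6 without replicate 1 at 24 h, while the median stayed between -1.82 and -1.41. Mrgprd had a limma adjusted p of 0.112 in the first case, 0.0851 in the second and 0.0665 without replicate 5 at 24 h. For Mrgprb4 it was 0.0915 and 0.0763, for Mrgpra3 0.0665 and 0.0566, for Cd55 0.0756 and 0.0561 and for Agtr1a 0.0817 and 0.0611 without those first 2 cultures. For Mrgprb5 it was 0.120, 0.0896 and, without replicate 5 at 24 h, 0.0629.

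Outside that list, the largest fall was that of Slc16a12, a transporter of the monocarboxylate family, from 1227, 2387 and 1304 to 86.7, 189 and 128 (-3.60, SE 0.46, limma adjusted p = 0.000886). Paqr5, a membrane progestin receptor, went from 803, 2031 and 1238 to 119, 356 and 305 (-2.43, SE 0.48). Prkcq, protein kinase C theta, went from 2863, 5507 and 3885 to 632, 1279 and 1085 (-2.04, SE 0.35). Chrna6, a nicotinic acetylcholine receptor subunit, went from 998, 2565 and 1417 to 178, 430 and 399 (-2.29, SE 0.48). These 4 held without any 1 culture, and the lack of overlap between times was a condition of the choice. Otoa (-2.41) and Hal (-2.24) completed the 12. With replicate 2 at 12 h left out, the limma adjusted p was 0.0665 for A3galt2, 0.105 for Otoa and 0.0525 for Hal. Without replicate 1 at 24 h it was 0.0508 for A3galt2 and 0.0961 for Otoa, and without replicate 5 at 12 h 0.0507 for Otoa. N28178, among the 5 largest falls by absolute amount, went from 38000, 55776 and 46156 to 16396, 21458 and 19455 (-1.28, SE 0.20) and held without any 1 culture.

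The list of markers of peptidergic nociceptors, the neurons of substance P and CGRP, held 16 genes. Of these 4 fell (25%) and 2 rose (12.5%), beside 5.76% and 13.1% of all genes. The falls included Th, which the list holds although it is not specific to these neurons. The heat and capsaicin receptor Trpv1 was at 5685, 8105 and 6334 at 12 h and at 3722, 4567 and 4146 at 24 h (-0.68, SE 0.16). Its limma adjusted p was 0.0615 without replicate 2 at 12 h. The falls numbered 0 without that culture and 2 without replicate 5 at 12 h, replicate 1 at 24 h or replicate 5 at 24 h. Tac1, the substance P precursor, was at 9110, 14934 and 11990 and then at 5224, 8095 and 7002, groups that did not overlap, yet the change of -0.82 (SE 0.32) did not pass (limma adjusted p = 0.0826). Calca, the CGRP precursor, had a change of -0.35 (SE 0.20). The rises were Adra2a and the artemin receptor Gfra3 (0.63).

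Of 37 genes listed as voltage-gated sodium and potassium channels 14 fell (37.8%) and 0 rose (median -0.41), beside 5.76% and 13.1% of all genes. The falls included Kcnk18, which the list holds although it is a background potassium channel and not voltage-gated. Scn11a, the NaV1.9 channel of nociceptors, was at 33053, 49718 and 41614 at 12 h and at 15033, 19887 and 15237 at 24 h (-1.30, SE 0.27). Scn10a, the NaV1.8 channel, went from 56870, 60060 and 56079 to 36527, 34936 and 31146 (-0.76, SE 0.17). Kcnd1, an A-type potassium channel, went from 4203, 4031 and 2841 to 1891, 2125 and 1500 (a ratio of means of 0.498). All 3 were lower in every 24 h culture, also without any 1 culture. Scn9a, the NaV1.7 channel, did not pass, at 40966, 41044 and 44166 and then 37405, 41696 and 32663. The count was 8 without replicate 2 at 12 h and 9 without replicate 1 at 24 h. Of 15 calcium channel genes 3 fell (20%) and 0 rose. The T-type channel Cacna1i was among the falls, going from 610, 591 and 613 to 154, 396 and 186 (-1.42, SE 0.31).

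Of 29 sensory transduction and ligand-gated channels 11 fell (37.9%) and 5 rose (17.2%), beside 5.76% and 13.1% of all genes. The kainate receptor Grik1 went from 11248, 23192 and 17053 to 3760, 6128 and 5892 (-1.68, SE 0.31), and Trpm3, a heat-sensing channel, from 1867, 2300 and 2261 to 878, 1348 and 1042 (-0.99, SE 0.20). The ATP receptors P2rx5 and P2rx4 went the other way: P2rx5 was at 595, 458 and 410 and then at 1411, 984 and 960 (1.19, SE 0.27), and P2rx4 at 1473, 1316 and 1421 and then at 2460, 1855 and 2293 (0.64, SE 0.11). Falls numbered 5 without replicate 2 at 12 h and 7 without replicate 5 at 24 h, and rises 3 without replicate 2 at 12 h or replicate 1 at 24 h. Of 27 genes of synaptic vesicle release 10 fell (37.0%) and 2 rose (7.41%), with a median of -0.29. Syt1, the calcium sensor of fast release, was at 11955, 16792 and 14742 and then at 5294, 6712 and 6805 (-1.20, SE 0.20), and Rab3a at 11319, 15082 and 10817 and then at 6808, 8079 and 6759 (-0.77, SE 0.13). Syt4, a synaptotagmin of dense-core vesicles, rose instead, from 61057, 60368 and 72583 to 85846, 75002 and 97184 (0.41, SE 0.12). Syt4 did not pass without replicate 1 (limma adjusted p = 0.0747) or 2 (0.110) at 12 h or replicate 1 (0.0635) or 5 (0.118) at 24 h. Falls in the list numbered 6 without replicate 1 or 2 at 12 h or replicate 5 at 24 h. The rises numbered 1 without replicate 1 at 12 h or replicate 5 at 24 h and 0 without replicate 2 at 12 h or replicate 1 at 24 h.

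**Figure D4:**
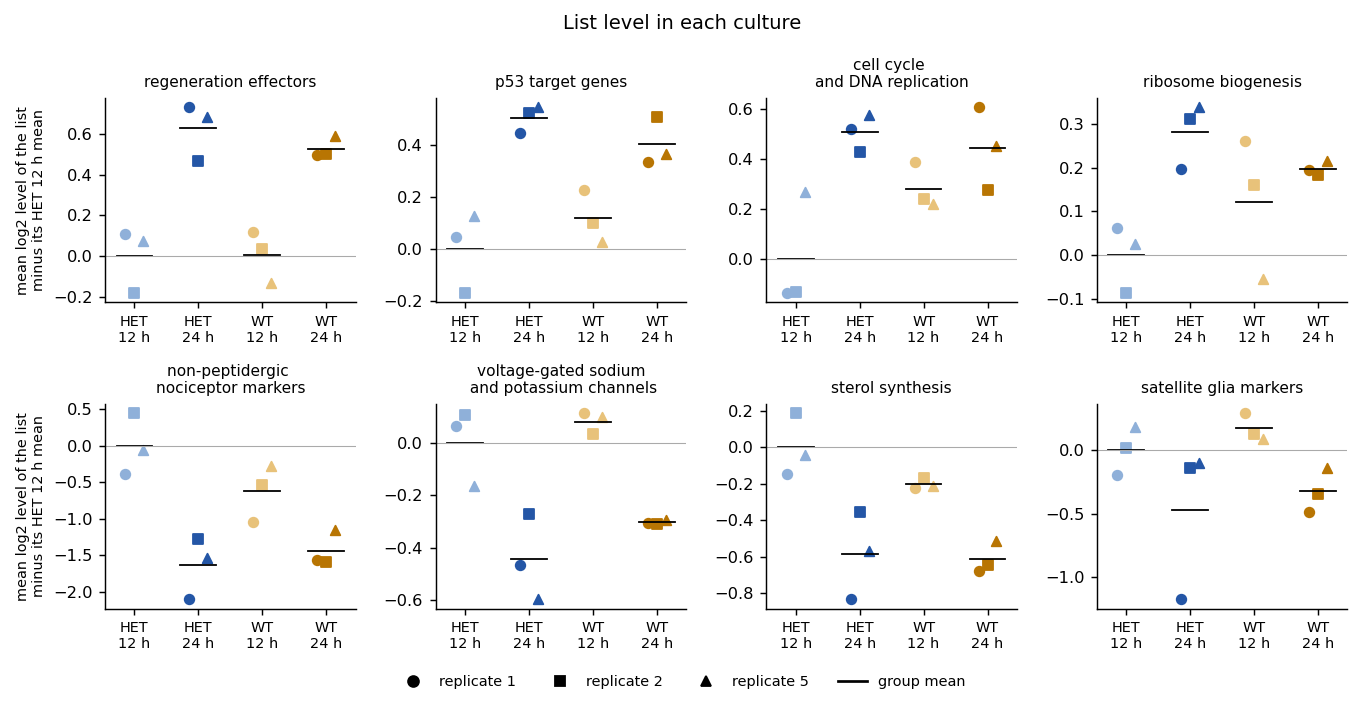
Mean log2 level of 8 gene lists in each culture, as the difference from the list's HET 12 h mean, for HET and WT at 12 and 24 h; symbols are replicates and lines group means. In HET the 24 h cultures lie above the 12 h cultures for the first 4 lists and below them for non-peptidergic markers, channels and sterol synthesis. Satellite glia markers are lowest in HET 24 h replicate 1.

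Of 24 genes of sterol synthesis, the pathway to cholesterol, 16 fell (66.7%, beside 5.76% of all genes) and 0 rose, with a median of -0.65. Mevalonate kinase (Mvk) was at 1429, 2241 and 1701 at 12 h and at 757, 1049 and 971 at 24 h (-0.94, SE 0.18, limma adjusted p = 0.00303). Nsdhl, a late-step dehydrogenase, went from 2278, 2998 and 2450 to 1076, 1669 and 1343 (-0.93, SE 0.20), and Acat2 from 3453, 4972 and 4088 to 1702, 2742 and 2275 (-0.91, SE 0.20). These held without any 1 culture. Hmgcs1, which makes the precursor of mevalonate, was at 27594, 33885 and 26776 and then at 14400, 22279 and 19148 (-0.68, SE 0.16). The regulator Srebf2 went from 5011, 5538 and 5124 to 3348, 3840 and 2983 (-0.63, SE 0.15). Squalene epoxidase (Sqle) stood apart at 15472, 14616 and 14991 and then 17037, 16378 and 16216, with a change of 0.14 (SE 0.14) that did not pass. Falls numbered 3 without replicate 2 at 12 h, 6 without replicate 1 at 24 h and 8 without replicate 5 at 24 h. Hmgcs1 had a limma adjusted p of 0.0670 and 0.0558 without the first 2 of these, and Srebf2 of 0.0578 and 0.0539 without the first and the last.

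Among 18 fatty acid genes 6 fell (33.3%) and 1 rose (5.56%), beside 5.76% and 13.1% of all genes. The desaturase Scd1 went from 27719, 40465 and 38424 to 12906, 19146 and 17676 (-1.10, SE 0.22) and Scd2 from 30732, 39237 and 34889 to 16309, 23129 and 21182 (-0.80, SE 0.18), while Fasn did not pass (-0.18). The falls numbered 3 without replicate 2 at 12 h and 4 without replicate 1 at 24 h. Satellite glia also express lipid genes. Of 16 satellite glia markers 4 fell (25%) and 1 rose (6.25%), with summed levels that overlapped between times. The part of glia in the lipid falls was not tested. Of 76 oxidative phosphorylation subunits 1 fell (1.32%) and 0 rose. The median was -0.17, and 8 of the 76 had a change above 0. Centring each culture on its median raised the falls to 31, and the authors' other adjusted columns to 13. The promoter of Hmgcs1 is shown because it held a sterol regulatory element, the site read by the SREBP factors, spelled TCACNCCAC and searched on both strands, a search chosen after the change was seen. The site, in capitals, starts 137 bases before the gene start in chr13:119690101-119690400 on the plus strand (RefSeq, GRCm38.p6). It was in 1 of the 16 sterol gene promoters with an entry and in 1.24% of all promoters.
Hmgcs1: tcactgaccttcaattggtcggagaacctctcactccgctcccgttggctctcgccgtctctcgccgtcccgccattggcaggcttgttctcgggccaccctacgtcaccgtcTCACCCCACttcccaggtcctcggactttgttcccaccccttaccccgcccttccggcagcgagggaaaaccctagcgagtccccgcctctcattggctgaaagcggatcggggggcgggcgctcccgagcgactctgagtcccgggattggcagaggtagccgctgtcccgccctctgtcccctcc

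Of 20 immediate early genes, which respond first to a stimulus, 2 rose (10%) and 2 fell (10%). Among all genes 13.1% rose and 5.76% fell. Fos went from 5362, 8634 and 6435 at 12 h to 1556, 3573 and 3362 at 24 h (-1.33, SE 0.36), and Fosb from 1583, 2875 and 1918 to 438, 989 and 843 (-1.52, SE 0.36). Both are immediate early subunits of AP-1, and both were lower in each 24 h culture than in any 12 h culture. Fos had a limma adjusted p of 0.0929 without replicate 2 at 12 h and 0.0880 without replicate 1 at 24 h, and Fosb of 0.0643 and 0.0518. In the list 0 rose without replicate 2 at 12 h and 1 without replicate 5 at 12 h or replicate 1 or 5 at 24 h, while 1 fell without replicate 2 at 12 h, 0 without replicate 1 at 24 h and 4 without replicate 2 at 24 h. After centring 1 rose and 5 fell. Il6, an injury cytokine, was at 176, 196 and 174 and then at 34.3, 89.2 and 94.6 (-1.44, SE 0.40), while Csf1, the growth factor of macrophages and microglia, went from 5656, 2647 and 3601 to 10126, 7145 and 7124 (1.09, SE 0.29). Of 22 injury cytokine and receptor genes 5 were higher (22.7%) and 3 lower (13.6%). Without replicate 2 at 12 h or replicate 1 at 24 h, 0 of these 8 remained past the threshold. Without replicate 1 at 12 h 2 of the list rose and 1 fell, and rises numbered 3 without replicate 2 at 24 h, 2 without replicate 5 at 24 h and 2 after centring. Of 21 interferon-stimulated genes 5 fell (23.8%) and 0 rose (median -0.48). Ifit1 led the falls, going from 851, 1585 and 1679 to 302, 600 and 580 (-1.47, SE 0.36). The falls were 0 without either of those cultures, 1 without replicate 5 at 12 h, 3 without replicate 5 at 24 h and 8 to 10 under the 3 other scalings.

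Markers of other cells moved beside these changes. The satellite glia genes Fabp7, from 192, 341 and 403 to 49.6, 121 and 147 (-1.62, SE 0.38), and Apoe (-1.27) were among 4 of 16 that fell, and replicate 1 at 24 h had the lowest value of both among the 6 cultures. The summed FPKM of the 16 glia markers was 428 to 727 at 12 h and 253 to 462 at 24 h, so the groups overlapped. Without replicate 2 at 12 h, replicate 5 at 12 h or replicate 1 at 24 h 1 of the 4 falls, Fabp7, remained, and under the 3 other scalings 6 markers fell. The 20 Schwann cell markers summed to 895 to 1056 and then 789 to 890. There were 2 falls (10%, beside 5.76% of all genes), or 1 without replicate 2 at 12 h or replicate 1 at 24 h. The 15 fibroblast markers summed to 113 to 153 and then 107 to 121, with 1 rise (6.67%, beside 13.1% of all genes). The 19 endothelial and mural markers summed to 169 to 235 and then 192 to 266, with 0 calls. The fibroblast rise was absent without replicate 2 or 5 at 12 h or replicate 1 at 24 h, and after centring or quantile normalization. Endothelial and mural rises numbered 2 without replicate 5 at 12 h and 3 without replicate 1 at 24 h. Neutrophil and red cell markers, of which 0 of 12 passed, summed to 117 to 278 and then 49.8 to 179. Of the 18 neuron markers 3 fell (16.7%), Rbfox3 (-0.51), Prph (-0.47) and Snap25 (-0.45), and 0 rose. With replicate 2 at 12 h left out 0 neuron markers fell, and without replicate 1 at 12 h, replicate 1 at 24 h or replicate 5 at 24 h 1 did. The part of a changed cell mix in the results above was not tested.

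Of 18 sensory identity transcription factors 1 rose (5.56%) and 2 fell (11.1%), beside 13.1% and 5.76% of all genes. The rise was lost on leaving out any 1 culture, and 4 fell after centring. Prdm12, a factor required for nociceptors to form, went from 2916, 3587 and 3025 to 1863, 1716 and 1706 (-0.84, SE 0.20), and Etv1, a factor of proprioceptors, from 925, 1277 and 845 to 361, 628 and 314 (-1.27, SE 0.31). The groups were separate in both, and 0 of the list passed without replicate 2 at 12 h, where their limma adjusted p was 0.0570 and 0.0662. Etv1 had 0.0532 without replicate 5 at 24 h. Of 18 neurotrophic factor receptors 3 rose (16.7%) and 2 fell (11.1%). Gfra3, which binds artemin, went from 3749, 3538 and 4168 to 6211, 4883 and 6778 (0.63, SE 0.15) and held without any 1 culture. Gfra2, which binds neurturin, went the other way, from 1911, 3169 and 3090 to 1054, 1503 and 1329 (-1.05, SE 0.27), with a limma adjusted p of 0.0823 without replicate 2 at 12 h, 0.0504 without replicate 5 at 12 h and 0.0640 without replicate 1 at 24 h. On leaving out replicate 2 at 12 h 1 receptor rose and 1 fell, and without replicate 1 at 24 h 1 fell.

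Of 23 glycolysis genes 2 rose (8.70%) and 4 fell (17.4%), beside 13.1% and 5.76% of all genes. The glucose transporter Slc2a1 was at 7187, 4978 and 6669 at 12 h and at 15550, 10335 and 12094 at 24 h (1.01, SE 0.21), and the muscle-type phosphofructokinase Pfkm at 9161, 11440 and 8702 and then at 5126, 6330 and 5282 (-0.80, SE 0.14). Both held without any 1 culture. The falls numbered 1 without replicate 2 at 12 h or replicate 1 at 24 h and 7 after centring, and the rises 1 without either of those cultures or replicate 5 at 24 h. Of 21 cytosolic heat shock proteins 3 rose (14.3%) and 2 fell (9.52%). Hspa9, a chaperone that the list holds although its protein is mitochondrial, rose from 28373, 28085 and 30472 to 36916, 39466 and 43540 (0.46, SE 0.11). The stress-induced Hspa1b fell from 1801, 2235 and 1642 to 977, 1189 and 1065 (-0.80, SE 0.21), but its near-identical neighbour Hspa1a makes that value uncertain. Its limma adjusted p was 0.0880 without replicate 2 at 12 h and 0.0566 without replicate 1 at 24 h. In that list 0 fell without either of these 2 cultures, and 1 rose and 4 fell after centring. Of 25 targets of SRF and YAP, factors that read the actin cytoskeleton, 5 rose (20%) and 1 fell (4%). Tropomyosin 1 (Tpm1) rose from 19340, 18026 and 19901 to 25156, 23309 and 24828 (0.36, SE 0.07). The rises numbered 2 without replicate 2 at 12 h, 8 without replicate 1 at 24 h, 3 without replicate 2 or 5 at 24 h and 3 after centring.

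Of 26 dynein and dynactin subunits other than Dynlrb1, 2 fell (7.69%) and 0 rose, where 5.76% of all genes fell and 13.1% rose. The intermediate chain Dync1i1 was at 8090, 10886 and 8444 at 12 h and at 5342, 6586 and 5994 at 24 h (-0.61, SE 0.13), and Dctn1, the large dynactin subunit that binds microtubules, at 25304, 28587 and 24833 and then at 19559, 19081 and 18500 (-0.46, SE 0.09). Both were separate between times and held without any 1 culture; 4 subunits fell after centring and with the authors' other adjusted columns. The heavy chain Dync1h1 did not pass, with a change of 0.21 (SE 0.20). Of 15 cargo adaptors 3 rose (20%) and 1 fell (6.67%). Bicd2 was among the former, going from 6619, 5090 and 6340 to 9869, 8294 and 8412 (0.56, SE 0.11). Without replicate 1 or 2 at 12 h or replicate 5 at 24 h 1 adaptor rose. Of 30 kinesins 4 rose (13.3%) and 3 fell (10%). The rises numbered 0 without replicate 2 at 12 h, 1 without replicate 1 or 5 at 24 h, and 2 without replicate 5 at 12 h or replicate 2 at 24 h, and after centring 1 rose and 5 fell. Kif5a, a motor of fast axonal transport, fell from 70491, 78334 and 74920 to 55819, 57716 and 50118 (-0.45, SE 0.10).

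WT cultures over the same interval had 622 genes past the threshold (3.62%), of which 509 rose (2.96%) and 113 fell (0.657%). Of these, 576 were also called in HET, each in the same direction; they were 92.6% of the WT calls and 17.7% of the HET calls. The WT count rested on each culture: it was between 0 and 197 when any 1 WT culture was left out. Of the 3252 HET calls, 3197 had the same sign in WT. The genes that rose in HET had a median change of 0.60 there and 0.37 in WT, and those that fell -0.67 and -0.42; since they were chosen for their HET change, this is a description. Non-peptidergic markers had medians of -1.60 in HET and -0.72 in WT, p53 targets 0.53 and 0.21, and sterol genes -0.65 and -0.45. Regeneration effectors had 0.25 and 0.43, and sodium and potassium channels -0.41 in both. Some lists had medians of opposite sign, among them integrins (0.33 in HET, -0.21 in WT) and axon guidance genes (0.26 and -0.09). So did apoptosis regulators (0.09 and -0.06) and endothelial and mural markers (0.19 and -0.22).

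The difference between the HET and WT changes was tested directly, and 0 genes passed (limma, 0% called). Before adjustment 370 of 17198 genes had p under 0.05. Where no gene differs, a share of about 0.05 of all genes would lie there, and the 370 of the main fit is a smaller share. The count was 219 to 922 under the alternatives run. The 922, with the replicate number within genotype as a block, is a larger share than 0.05. These counts therefore do not settle whether the changes differ between the genotypes. The 5 lowest p-values among genes with a mean of at least 50 belonged to Galnt4 (difference 0.74, SE 0.19, unadjusted p = 0.00103), Sik2 (0.79, SE 0.21), Itga9 (0.89, SE 0.26), the pseudogene Slfn10-ps (1.30, SE 0.39) and Ppp2r1b (0.70, SE 0.21), with a limma adjusted p of 0.998 for each. Galnt4, a glycosyltransferase, was at 158, 168 and 163 at 12 h and at 240, 283 and 270 at 24 h in HET, a rise of 0.69, and its WT change was -0.05. Itga9, an integrin, was at 253, 225 and 270 and then at 416, 428 and 388, with a WT change of -0.17. Across all genes the HET and WT changes had a Pearson r of 0.69 and a Spearman rho of 0.67 as a description over 17198 genes, which are not independent replicates.

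**Figure D5:**
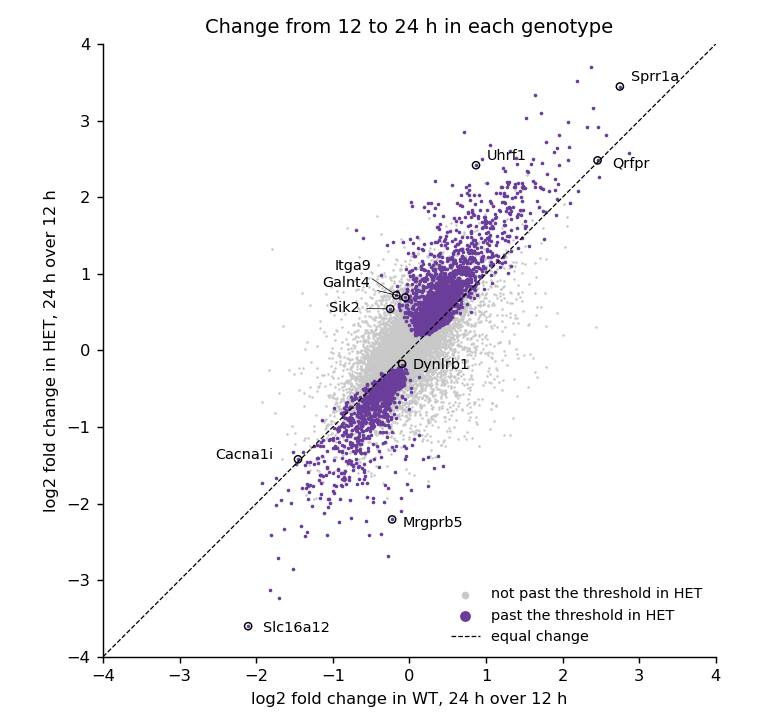
Log2 fold change from 12 to 24 h in HET (vertical axis) against WT (horizontal axis), 1 point per gene, with genes past the threshold in HET in purple and a dashed line of equal change. Most purple points share their sign in both genotypes (3197 of 3252), and those far from the line, such as Mrgprb5 and Uhrf1, did not pass the test of the difference.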

How the data were processed

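RNA from 18 cultures, 3 for each of 2 genotypes at 12, 24 and 48 h, is held in 1 deposited table of 17198 genes, 16529 with an Ensembl ID. Per the file headers, the authors deposited normalized counts, a signal without whole numbers whose totals run from 41509705 to 41509874 per culture. The authors also deposited another set of adjusted signal columns, with totals from 40047925 to 43816888 in the 6 HET cultures, and FPKM values. The authors' deposited log2 fold changes and FDR, an adjusted p-value, served only to count their calls by direction, and the authors' rank, a score, was not used. The submitters' processing notes name CASAVA 1.8.2, edgeR and the build mm10. The counting method and gene filter are not given in the sources used here. The deposited values span 15 of 17 possible dimensions between cultures, so 2 directions had been removed, by a step that is not stated. Depth per culture is unknown, and no counting interval was computed.

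Groups were taken from the titles. Since the values are not counts, limma 3.58.1 in R 4.3.3 was fitted to log2(normalized count + 1) of all 18 cultures with 1 coefficient per group and a trend of variance on mean, which left 12 residual degrees of freedom and added 5 from the prior. Those 12 do not allow for the 2 removed directions. The +1 understates changes of low genes. A minimum mean of 1 removed 0 genes. P-values are two-sided and Benjamini-Hochberg adjusted over all genes, with a threshold of 0.05. An exact permutation test of 3 against 3 cultures cannot go below 0.1 and was not used. The script was tested on simulated data. The members and the 46 lists were chosen with earlier results of these data known, and some marker lists share genes. Named genes were Dynlrb1, the 12 largest rises and 12 largest falls among called genes (mean 100 or more, groups not overlapping), the 5 largest in normalized count each way, up to 4 per list with a mean of at least 50, the 5 lowest p-values of the genotype difference, and further list members named to show a role. Alternatives were other scalings, pseudocounts, filters, a replicate block, the removed directions as covariates, a fit of the compared groups alone, no trend, and leaving out each culture. Some genes that this rule names are not reported here.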

Additional observations from a re-analysis of the deposited data

How the results depend on the processing

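The HET change had 3252 genes past the threshold, 2261 higher and 991 lower. Leaving out 1 HET culture gave 1141 to 2915 in all, 876 to 1919 higher and 265 to 999 lower. Centring each culture on its median gave 1263 higher and 1758 lower. Same-numbered HET cultures of the 2 times deviated from their group means with correlations of 0.36, 0.028 and 0.13 for replicates 1, 2 and 5. Of the 3 cultures at 12 h 2 correlated best with their own number at 24 h. These values do not settle whether the numbers pair the cultures. The labels do not say so, and the main fit was unpaired. Each gene said not to pass did not pass in that unpaired fit. Xist differed by number in the same order at both times, at 12850, 2381 and 62.5 at 12 h and 18268, 1056 and 90.0 at 24 h. Whether same-numbered cultures share animals, or differ from other numbers in sex, was not tested. With the replicate number within genotype as a block, 4498 HET genes passed, 1528 of them lower, and 1621 in WT; with a block shared by both genotypes, 4145 in HET and 1218 in WT. The replicate block with the removed directions as covariates gave 5900 in HET, 3833 higher and 2067 lower, and 2447 in WT. The WT count of 622 was 1132 with the removed directions alone, 247 after centring, 0 without a mean-variance trend, 0 to 197 without 1 WT culture and up to 611 without 1 HET culture. The cause of these shifts was not tested, except that leaving out a culture leaves fewer samples. The test of the genotype difference gave 0 genes under all alternatives run, with 219 to 922 genes under an unadjusted p of 0.05. Of the 170 named genes called in HET, 83 to 154 stayed past the threshold without 1 culture, the lowest number without replicate 2 at 12 h, and 82 did so in each of the 6 cases. None of these named genes turned its sign under an alternative that was run. What depth limits cannot be given, as it is unknown.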
